A study of Mus musculus with 9 samples.

Results

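The genes described here are 10 genes of acetylcholine signalling and of neurons that use it, taken by name from the deposited table of RPKM (reads per kilobase of exon, scaled to the depth of each library). They were Chat, Slc18a3, Slc5a7, Ache, Chrna3, Chrnb4, Chrnb3, Chrna6, Chrm2, and Ecel1. All 10 had a row among the 38621 genes of the table, and all 10 were among the 29025 genes that passed a filter on low values (an RPKM of 0.1 or more in 3 or more mice). Chrnb4 and Chrna6 each reached that RPKM in 6 mice, Chrnb3 in 5 mice, and the other 7 genes in all 9. RNA was sequenced from brain tissue of 9 male C57BL/6 mice, 3 in each group. Mice of the sham group were given saline in place of blood according to the study's methods and are labelled untreated. Mice of the ICH group received autologous blood into the brain, a model of intracerebral hemorrhage, and mice of the feb group received the xanthine oxidase inhibitor febuxostat before ICH. The time of tissue collection and the dissected part of the brain are not given for these samples in the sources used here.

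Cholinergic neurons make acetylcholine with choline acetyltransferase, encoded by Chat, and load it into synaptic vesicles with the transporter encoded by Slc18a3. Acetylcholinesterase breaks the transmitter down in the synapse, and the choline that results is taken back by the high-affinity transporter encoded by Slc5a7. The cell bodies of these neurons lie in the basal forebrain, the striatum, the medial habenula, and groups of brainstem and motor nuclei, and nicotinic receptors built from the products of Chrna3, Chrnb4, Chrnb3, and Chrna6 are enriched in the medial habenula and in midbrain dopaminergic neurons.

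The libraries held between 23065757 and 29538009 reads counted on genes, and all were brain by their markers, with Snap25, a synaptic gene, between 196 and 272 RPKM. The mice differed in the markers of brain regions within each group, and their part in the differences between groups was not tested. Sham replicate 1 stood apart: Hoxb3 and Hoxb4, which are expressed in the hindbrain and spinal cord, were at 1.70 and 3.42 RPKM there and at no more than 0.0186 and 0.0796 RPKM in the other mice, while the striatal receptor gene Drd1 was lowest there at 0.538 RPKM. Slc6a3 and En1, which mark midbrain dopaminergic neurons, were at 2.91 and 2.26 RPKM in sham replicate 1, at 6.01 and 1.02 RPKM in sham replicate 3, and at 1.82 and 1.07 RPKM in feb replicate 2. They were at no more than 0.165 and 0.0864 RPKM in the other 6 mice. In bulk tissue, fewer cells of a type and less RNA per cell cannot be told apart.

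Several of the genes are neighbours in the genome (GRCm38). Chat (chr14:32408203-32465909) contains the whole of Slc18a3 (chr14:32462438-32464850) on the same strand, and the deposited exons of the pair share 0 bases. Chrna3 (chr9:55010111-55026562) and Chrnb4 (chr9:55028154-55048779) lie 1591 bases apart, and Chrnb3 (chr8:27368711-27399730) and Chrna6 (chr8:27403212-27413944) lie 3481 bases apart. Slc5a7 is on chromosome 17 (54273594 to 54299034). Ache is on chromosome 5 (137287519 to 137294466), Chrm2 on chromosome 6 (36388084 to 36528414), and Ecel1 on chromosome 1 (87147655 to 87156521). RefSeq promoters for GRCm38.p6 were found for 8 of the 10 genes (not for Chrnb3 and Chrna6), and the 250 bases before the start are printed for the 3 genes of synthesis and transport, whose levels moved together among the mice, and for Chrna3, the first of the nicotinic pair. Each is written 5′ to 3′ in the direction of the gene, all on the minus strand. The capitals mark a GC box (GGGCGG on either strand) or the core of the cyclic AMP response element (TGACG on either strand), and none of the marked letters belonged to both motifs.
Chat: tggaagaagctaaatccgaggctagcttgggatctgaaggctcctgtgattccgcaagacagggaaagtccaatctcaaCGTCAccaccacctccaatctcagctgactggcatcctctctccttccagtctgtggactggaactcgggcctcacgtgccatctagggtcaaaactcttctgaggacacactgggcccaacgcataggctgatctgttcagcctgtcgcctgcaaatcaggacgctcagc
Slc18a3: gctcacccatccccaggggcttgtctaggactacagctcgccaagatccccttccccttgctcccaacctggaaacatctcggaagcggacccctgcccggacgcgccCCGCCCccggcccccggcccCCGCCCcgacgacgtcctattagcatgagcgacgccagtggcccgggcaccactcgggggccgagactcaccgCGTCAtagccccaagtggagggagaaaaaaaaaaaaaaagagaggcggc
Slc5a7: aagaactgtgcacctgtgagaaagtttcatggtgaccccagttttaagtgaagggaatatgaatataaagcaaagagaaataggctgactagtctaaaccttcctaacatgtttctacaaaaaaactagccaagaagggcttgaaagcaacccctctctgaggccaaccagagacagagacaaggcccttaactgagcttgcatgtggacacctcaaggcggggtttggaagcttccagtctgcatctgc
Chrna3: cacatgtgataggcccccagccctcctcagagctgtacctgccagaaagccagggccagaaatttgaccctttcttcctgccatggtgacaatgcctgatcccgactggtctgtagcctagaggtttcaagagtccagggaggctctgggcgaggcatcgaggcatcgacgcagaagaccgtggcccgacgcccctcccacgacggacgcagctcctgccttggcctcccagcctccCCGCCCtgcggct
The windows lie at chr14:32465910-32466159, chr14:32464851-32465100, chr17:54299035-54299284, and chr9:55026563-55026812, in that order. The window of Slc18a3 lies within the span of Chat and shares 59 bases with an exon of Gm2990 on the other strand. Among the windows not printed, that of Chrm2 shares all 250 bases with exons of 9330158H04Rik. Those of Chrnb4, Ecel1, and Ache share 235, 165, and 54 bases with deposited exons of the gene itself. A GC box was found in 4 of the 8 promoters (Slc18a3, Ache, Chrna3, and Chrm2), and 32.7% of 32851 mouse promoters of this length have one. The TGACG core was found in 2 of the 8 (Chat and Slc18a3), against 17.8% of all promoters. The 250 bases of Slc18a3 had a GC content of 66%, those of Slc5a7 45.6%, and the median promoter 52.4%.

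Chat, the synthetic enzyme, was at 1.67, 2.65, and 1.43 RPKM in the sham mice, at 1.90, 1.27, and 1.81 RPKM in the ICH mice, and at 1.32, 0.719, and 1.70 RPKM in the feb mice (replicates 1, 2, and 3 in each group). The highest mouse was sham replicate 2, the lowest was feb replicate 2, and the 3 groups overlapped. The difference between ICH and sham was -0.17 ± 0.33 on the log2 scale (SE, limma, adjusted p = 0.841), and that between feb and ICH was -0.44 ± 0.33 (adjusted p = 0.635). Slc18a3, the vesicular acetylcholine transporter, was at 1.25, 1.01, and 0.560 RPKM in sham, at 0.491, 0.410, and 0.696 RPKM in ICH, and at 0.517, 0.279, and 0.701 RPKM in feb. Sham replicates 1 and 2 were above every other mouse, and sham replicate 3 lay within the range of the ICH and feb mice. The difference between ICH and sham was -0.68 ± 0.36 (limma, adjusted p = 0.450), and that between feb and ICH was -0.12 ± 0.36 (adjusted p = 0.926). Slc5a7, the choline transporter, was at 2.33, 3.34, and 1.39 RPKM in sham, at 1.82, 1.34, and 2.29 RPKM in ICH, and at 1.57, 1.19, and 1.91 RPKM in feb. Its highest and lowest mice were the same as those of Chat, and the groups overlapped. Its differences were -0.31 ± 0.32 between ICH and sham (limma, adjusted p = 0.693) and -0.20 ± 0.32 between feb and ICH (adjusted p = 0.841). None of the 3 genes of synthesis and transport met the criteria for a change in any comparison.

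Across the 9 mice, these genes varied together. Chat and Slc5a7 had a Pearson r of 0.875 (exact permutation test, two-sided, p = 0.00216, adjusted over 8 pairs p = 0.00862) and a Spearman rho of 0.833 (exact p = 0.00827, adjusted p = 0.0331). With the 2 mice most distant from the median of Chat removed (sham replicate 2 and feb replicate 2), r was 0.789. Chat and Slc18a3 had an r of 0.771 (exact p = 0.0165, adjusted p = 0.0264) and a rho of 0.617 (exact p = 0.0857, adjusted p = 0.114). Their r was weaker, at 0.438, without the 2 farthest mice, a step that also narrows the range of Chat. The ratio of Slc18a3 to Chat, both per length, was 0.746 in sham replicate 1 (95% exact interval 0.565 to 0.980 from 89 and 139 reads) and between 0.258 and 0.413 in the other 8 mice, whose intervals reached up to 0.683. The intervals cover counting error only. Without sham replicate 1, a choice made after seeing the data, r between Chat and Slc18a3 was 0.914. Chat and Lhx8, a transcription factor gene of forebrain cholinergic neurons, had an r of 0.481 over 9 mice (exact p = 0.188, adjusted p = 0.215) and a rho of 0.717 (exact p = 0.0369, adjusted p = 0.0590). Their r was 0.111 with the same 2 mice removed and 0.927 without sham replicate 1, where Chat was at 1.67 RPKM and Lhx8 at 0.0401 RPKM, against 0.407 to 3.54 RPKM in the other mice. Sham replicate 1 was also the mouse with the highest level of Prph (8.97 RPKM), an intermediate filament gene of neurons with peripheral axons. The part of Prph and of the hindbrain genes in the level of Chat was not tested.

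**Figure D1:**
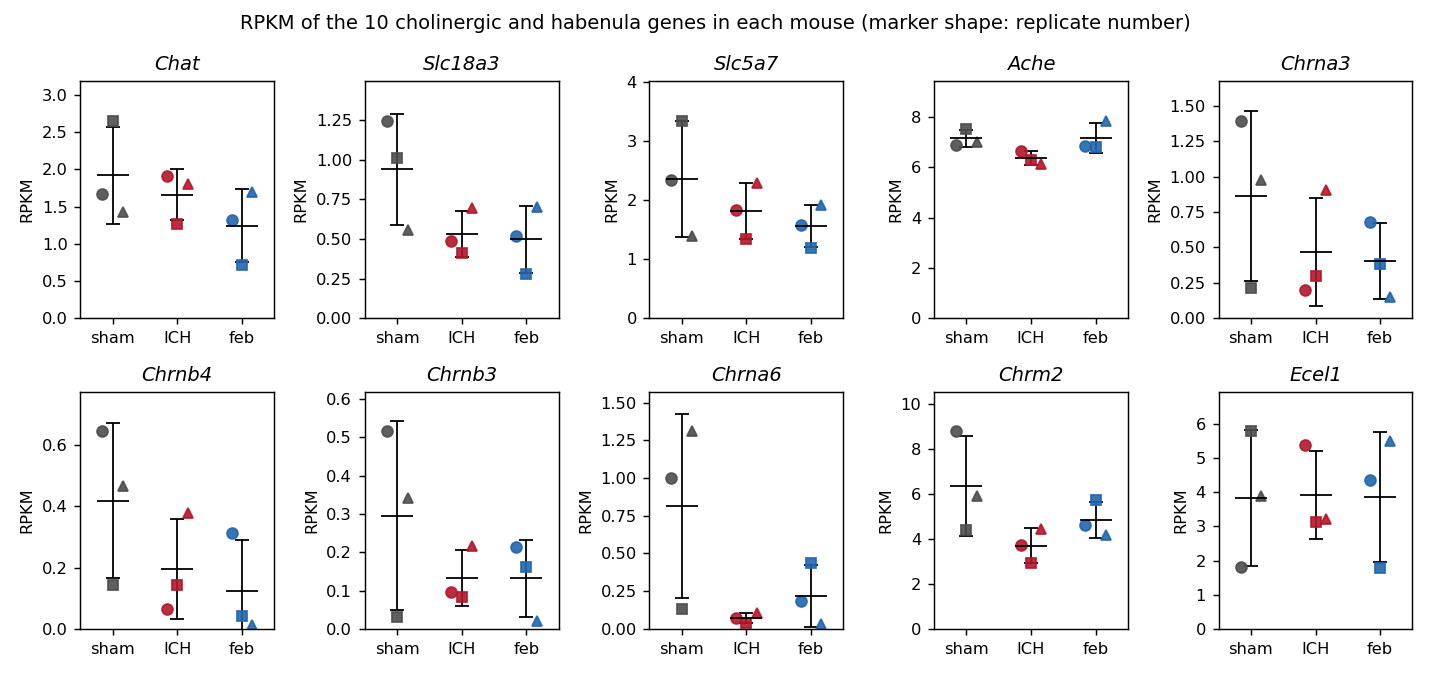
RPKM (linear axis from 0) of the 10 genes in the 3 sham, 3 ICH, and 3 feb mice; each point is a mouse, its shape gives the replicate number, and the bars are the mean ± SD of 3 mice. Ache stayed between 6.11 and 7.86 RPKM, while sham replicates 1 and 3 were the 2 highest mice for Chrna3, Chrnb4, Chrnb3, and Chrna6.

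Ache, which encodes acetylcholinesterase, was at 6.91, 7.53, and 7.02 RPKM in sham, at 6.66, 6.31, and 6.11 RPKM in ICH, and at 6.86, 6.82, and 7.86 RPKM in feb. All 3 ICH mice were below all sham and all feb mice. The differences were small, -0.17 ± 0.09 on the log2 scale between ICH and sham (limma, adjusted p = 0.450) and 0.17 ± 0.09 between feb and ICH (adjusted p = 0.506), and neither passed the test. Ache was the steadiest of the 10 genes, with a 1.29-fold range from the lowest to the highest mouse, against ranges of 2.80-fold to 55.4-fold for the others. Its correlation with Chat across the mice did not pass the test (r = 0.268, exact permutation p = 0.494, adjusted p = 0.494, and rho = 0.217, exact p = 0.581, adjusted p = 0.581), with r = 0.0596 without the 2 farthest mice and r = 0.710 with the group means removed. Of its exon bases, 2.12% are shared with Gm42456 on the other strand, and whether the counting used strand is not given in the sources used here.

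The 4 nicotinic receptor genes were low and varied most. Chrna3, the alpha3 subunit, was at 1.40, 0.211, and 0.973 RPKM in sham, at 0.202, 0.296, and 0.907 RPKM in ICH, and at 0.682, 0.384, and 0.148 RPKM in feb. Chrnb4, the beta4 subunit with which alpha3 assembles in the habenula, was at 0.646, 0.144, and 0.468 RPKM in sham, at 0.0658, 0.143, and 0.379 RPKM in ICH, and at 0.315, 0.0426, and 0.0116 RPKM in feb. Sham replicates 1 and 3, ICH replicate 3, and feb replicate 1 were the 4 highest mice for both genes, so the highest mice came from all 3 groups. Chrna3 had 18 to 217 reads per mouse and Chrnb4 1 to 71, and the single Chrnb4 read of feb replicate 3 has an exact Poisson interval of 0.0253 to 5.57 reads. Between ICH and sham the differences were -0.68 ± 0.70 for Chrna3 (limma, adjusted p = 0.681) and -0.81 ± 0.64 for Chrnb4 (adjusted p = 0.592). Between feb and ICH they were -0.12 ± 0.70 (limma, adjusted p = 0.965) and -0.52 ± 0.64 (adjusted p = 0.785). Within the groups, the highest mouse exceeded the lowest 4.49-fold to 6.62-fold for Chrna3.

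Chrnb3, the beta3 subunit, was at 0.516, 0.0300, and 0.341 RPKM in sham, at 0.0962, 0.0836, and 0.216 RPKM in ICH, and at 0.214, 0.162, and 0.0204 RPKM in feb. Sham held both the highest mouse and, apart from feb replicate 3, the lowest. Its difference between ICH and sham was -0.54 ± 0.61 (limma, adjusted p = 0.709), and that between feb and ICH was -0.07 ± 0.61 (adjusted p = 0.982). Chrna6, the alpha6 subunit, which is enriched in dopaminergic neurons, was at 1.002, 0.132, and 1.31 RPKM in sham, at 0.0703, 0.0393, and 0.105 RPKM in ICH, and at 0.182, 0.436, and 0.0298 RPKM in feb. The 3 ICH mice were below the 3 sham mice, but the nearest of them, sham replicate 2 with 10 reads (exact Poisson interval 4.80 to 18.4) and ICH replicate 3 with 8 reads (3.45 to 15.8), could not be told apart at this depth. Chrna6 was the gene of the 10 that met the criteria for a change: it was lower in ICH than in sham by limma's test with a log2 difference of -2.07 ± 0.73 and an unadjusted p under 0.05, but its adjusted p over all genes was 0.364. The call was lost without sham replicate 1 (-1.75), without sham replicate 3 (-1.58), and without ICH replicate 2 (-1.93), where the unadjusted p was no longer under 0.05, and with a pseudocount of 1 (-0.70, under a 2-fold change). The feb mice spanned the range from below the ICH mice to above sham replicate 2, and the differences of feb were 0.67 ± 0.73 from ICH (limma, adjusted p = 0.752) and -1.40 ± 0.73 from sham (adjusted p = 0.629).

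Chrm2, the M2 muscarinic receptor, which acts as an autoreceptor on cholinergic terminals, was at 8.79, 4.39, and 5.89 RPKM in sham, at 3.74, 2.91, and 4.46 RPKM in ICH, and at 4.62, 5.75, and 4.18 RPKM in feb. ICH replicate 3 was just above sham replicate 2, so the sham and ICH groups overlapped by 1 mouse. The difference between ICH and sham was -0.73 ± 0.26 (limma, adjusted p = 0.366), below the 2-fold limit. Its unadjusted p was under 0.05, but not without sham replicate 1 (-0.47) or without ICH replicate 2 (-0.57). The difference between feb and ICH was 0.39 ± 0.26 (limma, adjusted p = 0.595). A share of 2.35% of the exon bases of Chrm2 lies in exons of 9330158H04Rik on the other strand. Ecel1, a membrane peptidase of the endothelin-converting enzyme family, was at 1.81, 5.78, and 3.89 RPKM in sham, at 5.39, 3.12, and 3.23 RPKM in ICH, and at 4.35, 1.78, and 5.49 RPKM in feb. The groups overlapped almost fully, with means of 3.83 ± 1.99, 3.91 ± 1.28, and 3.87 ± 1.90 RPKM (SD, n = 3 each). The differences were 0.13 ± 0.50 between ICH and sham (limma, adjusted p = 0.929) and -0.11 ± 0.50 between feb and ICH (adjusted p = 0.952).

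The order of the levels per length, by the mean of 9 mice, was Ache (6.90 RPKM), Chrm2 (4.97 RPKM), Ecel1 (3.87 RPKM), Slc5a7 (1.91 RPKM), Chat (1.61 RPKM), Slc18a3 (0.657 RPKM), Chrna3 (0.577 RPKM), Chrna6 (0.367 RPKM), Chrnb4 (0.246 RPKM), and Chrnb3 (0.186 RPKM). Chat was above Slc18a3 in 9 of 9 mice, Ache above Chrm2 in 8, and Ecel1 above Slc5a7 in 8. Other neighbours changed places between mice: Chrm2 was above Ecel1 in 5 of 9, Slc18a3 above Chrna3 in 4, and Chrna6 above Chrnb4 in 5.

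Over the 10 genes, 1 was called lower in ICH than in sham (Chrna6) and 0 were called higher. A call needed an unadjusted p under 0.05 and a fold change over 2, which 2.53% of all genes met in this comparison and 1.07% met in the lower direction. Of the 10 genes, 2 did not overlap between ICH and sham (Chrna6 and Ache), against 19.4% of all genes. Of the 10 genes, 9 had a lower mean log2 level in ICH than in sham and 1, Ecel1, a higher one, and their median difference was -0.61 against 0.08 over all genes. Between feb and ICH, 0 of the 10 were called (2.43% of all genes), and 0 had an unadjusted p under 0.05 by limma (11.1% of all genes). Limma with voom called 0 (2.76% of all genes), and 1 did not overlap (Ache, 17.2% of all genes). Their median difference was -0.12 against -0.01 over all genes. Between feb and sham, 0 were called by limma (2.2% of all genes), and 0 had an unadjusted p under 0.05 (8.54% of all genes). Limma with voom called 1 (Chrnb4) and 2.77% of all genes, and 0 of the 10 did not overlap (12.7% of all genes). The median difference was -0.61 there against 0.05 over all genes, and the sham mice are shared with the first comparison. No adjusted p of the 10 genes was below 0.364 in ICH against sham, 0.506 in feb against ICH, or 0.594 in feb against sham, and with 3 mice against 3 an exact permutation test of a single gene cannot go below 0.1.

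**Figure D2:**
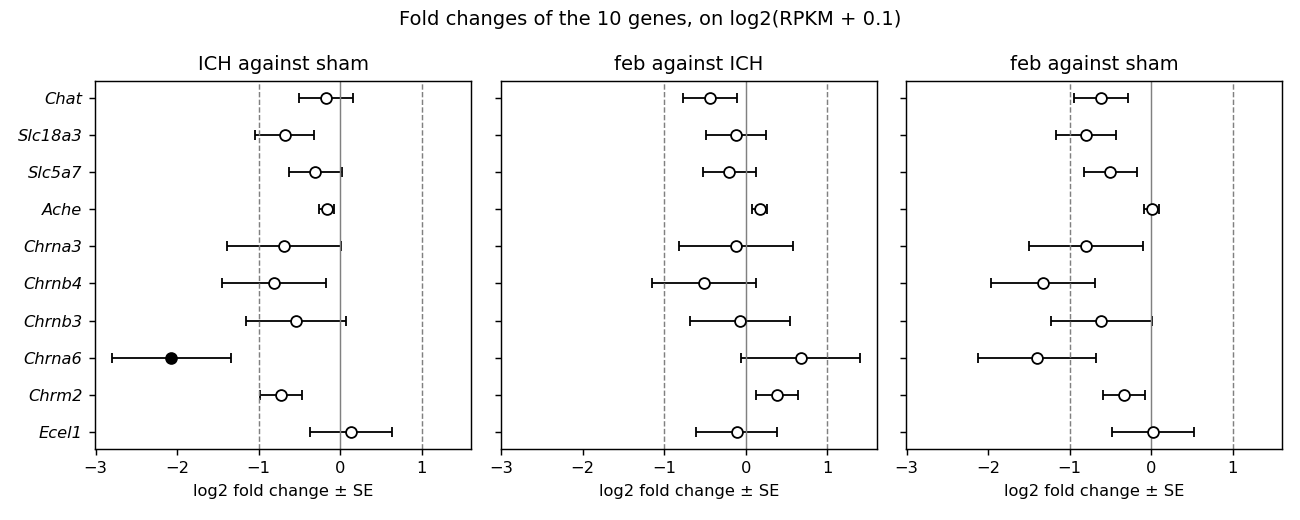
Log2 fold changes (x axis, ± SE from limma) of the 10 genes in the 3 comparisons; dashed lines mark a 2-fold change, the filled point a gene that met the criteria and open points those that did not. The filled point is Chrna6 at -2.07 in ICH against sham.

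The comparison of feb with sham depended on single mice. Without sham replicate 2, 4 of the 10 genes were called lower in feb than in sham (Chrna3, Chrnb4, Chrnb3, and Chrna6, with log2 differences of -1.48, -1.80, -1.28, and -2.21), and 2 were called lower in ICH than in sham (Chrna6 at -2.88 and Chrnb3 at -1.21). Leaving out that mouse also raised the calls over all genes, from 639 to 1136 (3.95% of the genes tested, and 0.888% in the lower direction) in feb against sham and from 735 to 1288 (4.48%, and 1.54% lower) in ICH against sham. Sham replicate 2 was the mouse with the highest Chat, Slc5a7, and Ecel1 and the lowest sham level of the 4 nicotinic genes. Slc18a3 was called lower in feb than in sham without sham replicate 3 (-1.10) and without feb replicate 3 (-1.04), Chrnb4 without feb replicate 1 (-1.90), and Chrna6 without feb replicate 2 (-1.89), while with all mice the differences were -0.80 ± 0.36, -1.32 ± 0.64, and -1.40 ± 0.73. In these 4 settings the calls over all genes were 565 (1.97%), 450 (1.57%), 809 (2.82%), and 1016 (3.54%). With all mice, the other 7 differences of feb from sham ran from -0.80 ± 0.70 for Chrna3 through -0.61 ± 0.33 for Chat and -0.51 ± 0.32 for Slc5a7 to 0.02 ± 0.50 for Ecel1.

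The nicotinic genes varied together among the mice, both in pairs that are neighbours on a chromosome and between chromosomes. Chrna3 and Chrnb4 had a Pearson r of 0.920 across the 9 mice (exact permutation test, p = 0.00122, adjusted p = 0.00862), a rho of 0.883 (exact p = 0.00308, adjusted p = 0.0246), and an r of 0.838 with the 2 most distant mice removed (sham replicates 1 and 3). Chrna6 and Chrnb3 had an r of 0.817 (exact p = 0.00681, adjusted p = 0.0182) and a rho of 0.783 (exact p = 0.0172, adjusted p = 0.0459). Their r was weaker, at 0.532, without the same mice, a step that also narrows the range of Chrna6. With the group means removed, r was 0.940 for the first pair and 0.889 for the second. Chrna6 was higher than Chrnb3 per length in sham (ratios of 1.94, 4.38, and 3.84) and was lower than Chrnb3 in all 3 ICH mice (0.731, 0.470, and 0.487), where the exact 95% intervals of the ratio reached 2.12, 1.68, and 1.07 and so included equal levels. In feb the ratios were 0.852, 2.70, and 1.46, on both sides of equal levels. Of the 45 pairs among the 10 genes, the closest was Chrna3 with Chrnb3 (r = 0.956), which lie on different chromosomes, as do Chrnb4 and Chrnb3 (r = 0.834). Chrm2 had an r of 0.545 to 0.864 with the nicotinic genes, against -0.141 with Chat, 0.121 with Slc5a7, and 0.423 with Slc18a3. Ecel1 had negative values with all 4 nicotinic genes and Chrm2 (r of -0.649 to -0.325). Its values were positive with Chat (r = 0.651), Ache (r = 0.416), Slc5a7 (r = 0.348), and Slc18a3 (r = 0.141). These values over all pairs are descriptions, since all genes were read from the same 9 libraries.

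Some markers of brain regions followed these genes from mouse to mouse, and others of the same regions did not. Gpr151, an orphan receptor gene of the habenula, had its 4 highest values, 2.76, 2.55, 2.36, and 2.35 RPKM, in sham replicate 1, ICH replicate 3, feb replicate 1, and sham replicate 3, the same 4 mice that were highest for Chrna3 and Chrnb4. Across the 9 mice the r of Chrnb4 with Gpr151 was 0.812 (exact permutation test, p = 0.0130, adjusted p = 0.0259), the rho was 0.750 (exact p = 0.0255, adjusted p = 0.0510), and the r without the 2 farthest mice was 0.706. Gpr151 was the only habenula marker tested in a pair, and the pairs were chosen with earlier results of these data known. Pou4f1, a transcription factor gene of the habenula, was between 0.768 and 2.81 RPKM in those 4 mice and between 0.00874 and 0.602 RPKM in the other 5, and was named after its values were seen. The other 3 habenula markers did not follow this order. Tac2 was at 9.67 RPKM in feb replicate 3, the mouse with the lowest Chrna3 and Chrnb4, and at 6.14 RPKM in ICH replicate 3. Nwd2 was higher in ICH replicate 2, at 3.43 RPKM, than in sham replicate 3 or ICH replicate 3, both at 3.39 RPKM, and Gng8 was higher in feb replicate 2, at 0.807 RPKM, than in feb replicate 1, at 0.571 RPKM. The summed RPKM of 5 habenula markers ran from 10.4 to 20.2 in sham, from 7.75 to 13.9 in ICH, and from 7.66 to 18.2 in feb, and 0 of the 5 were called, or had an unadjusted p under 0.05 by limma, in any comparison. The 3 mice with the highest Chrna6, sham replicates 3 and 1 and feb replicate 2, were the 3 mice in which Slc6a3 and En1 were over 1 RPKM, and both markers were singled out after their values were seen. Ret, Aldh1a1, and Pitx3 were also highest in these 3 mice, at 3.33 to 5.19, 38.6 to 55.0, and 0.177 to 0.326 RPKM. They too were picked out after their values were seen. Th, Ddc, Slc18a2, Foxa1, and Foxa2 had other mice among their 3 highest. Ddc, which encodes the decarboxylase that makes dopamine, was highest in feb replicates 1 and 3, at 7.61 and 7.42 RPKM, of which feb replicate 3 had the lowest Chrna6, and was at 2.74 RPKM in feb replicate 2. Slc18a2, the vesicular monoamine transporter, was at 1.80 and 1.77 RPKM in feb replicates 1 and 3 and at 1.66 and 1.69 RPKM in sham replicate 1 and feb replicate 2. The summed RPKM of 10 midbrain dopaminergic markers ran from 34.3 to 71.4 in sham, from 17.1 to 33.3 in ICH, and from 33.8 to 50.8 in feb. Aldh1a1 made up most of this sum in each mouse, with 55.0 of 71.2 RPKM in sham replicate 1 and 26.7 of 33.3 RPKM in ICH replicate 3. Of the 8 markers tested, 3 were called lower in ICH than in sham (Aldh1a1, En1, and Ret), beside 1.07% of all genes. Their adjusted p-values by limma were 0.345, 0.383, and 0.347. In feb against ICH, 1 was called higher (Ddc, limma, adjusted p = 0.368), beside 2.43% of all genes called in either direction. Slc6a3, the dopamine transporter, was listed at 0 in ICH replicate 3. Chrna6 and Th, the rate-limiting enzyme of dopamine synthesis, had an r of 0.645 (exact permutation test, p = 0.0621, adjusted p = 0.0828), a rho of 0.5 (exact p = 0.178, adjusted p = 0.203), and an r of 0.149 without the 2 farthest mice. The part of these markers in the lower Chrna6 of the ICH mice was not tested.

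**Figure D3:**
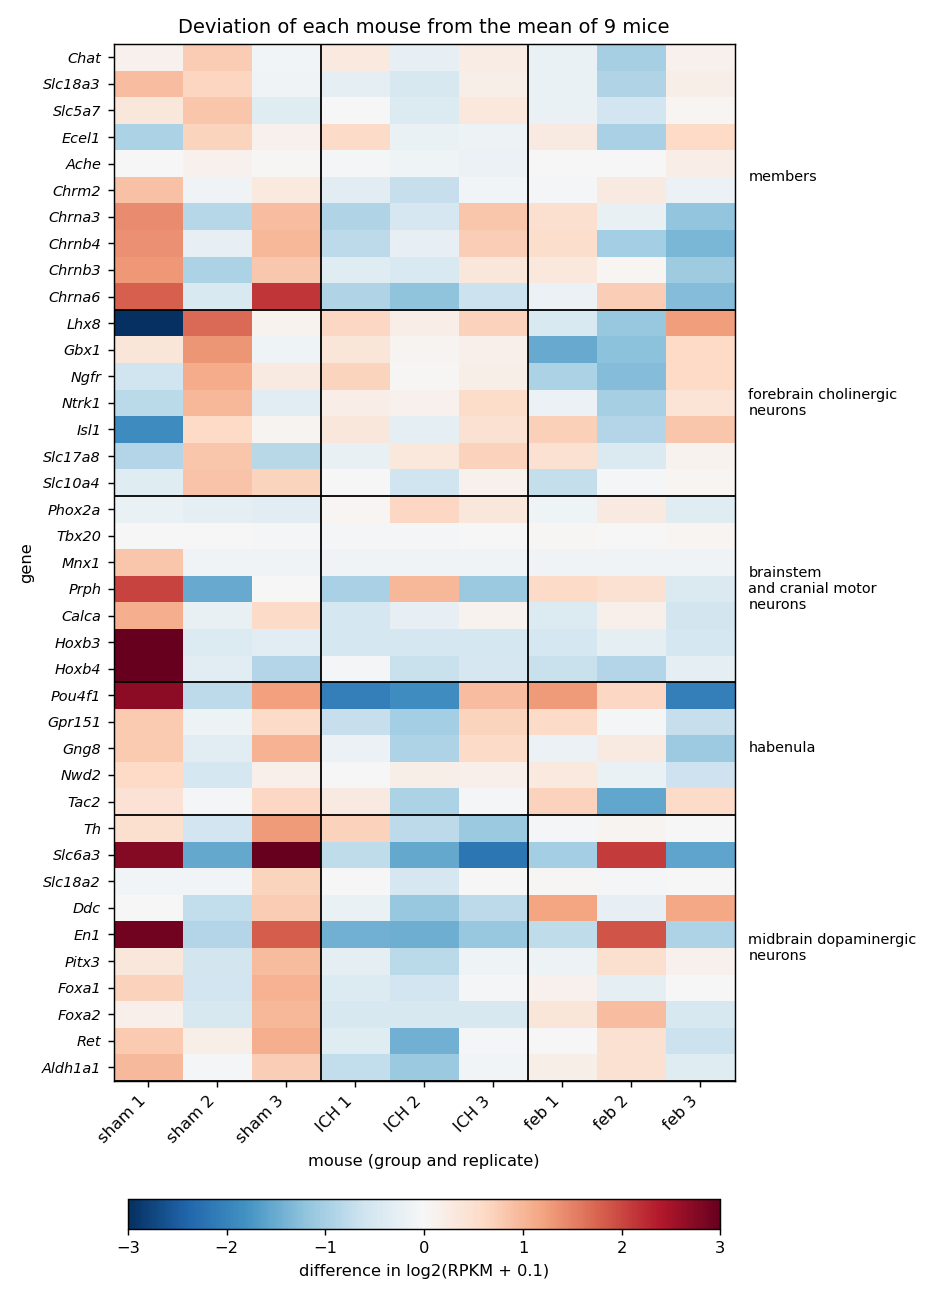
Deviation of each mouse (columns) from the mean of the 9 mice in log2(RPKM + 0.1), with red above and blue below, for the 10 genes and for markers of 4 cell types or regions (rows); colours end at 3 in either direction. Chrna3, Chrnb4, Gpr151, and Pou4f1 were above their means in sham replicates 1 and 3, ICH replicate 3, and feb replicate 1. Pou4f1 was also above its mean in feb replicate 2, and the habenula markers Tac2, Nwd2, and Gng8 did not follow this order. The dopaminergic markers Slc6a3, En1, Ret, Aldh1a1, and Pitx3 were highest in sham replicates 1 and 3 and feb replicate 2, where Chrna6 was also highest. Th, Ddc, Slc18a2, Foxa1, and Foxa2 had other mice among their 3 highest.

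Among the 7 forebrain cholinergic markers, 0 were called or had an unadjusted p under 0.05 by limma in any comparison, and their summed RPKM was 4.17 to 17.9 in sham, 8.22 to 11.3 in ICH, and 4.38 to 13.1 in feb. Sham replicate 2, the mouse with the highest Chat, was highest for each of them except Isl1, with Lhx8 at 3.54 RPKM and Ngfr at 4.13 RPKM, and feb replicate 2, the mouse with the lowest Chat, was at 0.407 RPKM of Lhx8 and 0.690 RPKM of Ngfr. The 7 brainstem and cranial motor markers summed to 15.2 RPKM in sham replicate 1 and to 1.13 to 4.90 RPKM in the others, and 0 of the 3 tested were called or had an unadjusted p under 0.05 by limma. Lists for other regions gave these calls, none with an adjusted p under 0.05 by limma. Over all genes, 2.53%, 2.43%, and 2.2% were called in the 3 comparisons, in the order given here. In ICH against sham, 6 of 8 cortical markers were higher and 1 of 9 thalamic markers was lower. In feb against ICH, all 8 choroid plexus markers, 3 of 4 blood markers, and 3 of 8 cortical markers were lower, and 1 of 7 hypothalamic markers was higher. In feb against sham, 7 of 8 choroid plexus markers and 2 of 4 blood markers were lower, and 2 of 8 cortical markers and 1 of 7 hypothalamic markers were higher. The 9 striatal markers had 0 calls and 0 unadjusted p under 0.05 by limma in each comparison. The 10 brain tissue markers had 0 calls and 1 or 2 such p-values, beside 8.54% to 12.3% of all genes.

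**Figure D4:**
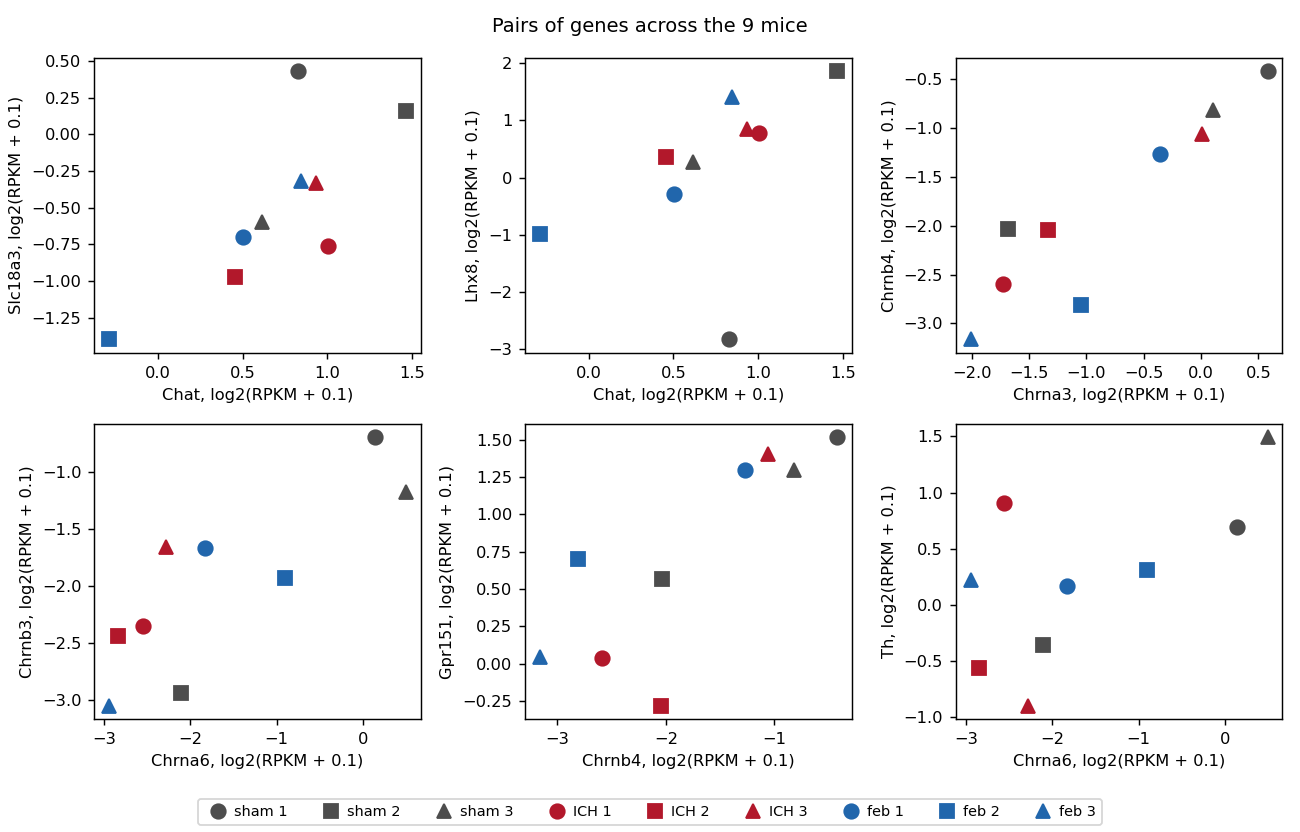
Levels of 6 pairs of genes in the 9 mice, both axes in log2(RPKM + 0.1), with colour for the group and shape for the replicate number. Sham replicate 1 lies apart in the plots of Chat with Slc18a3 and of Chat with Lhx8, whereas Chrna3 and Chrnb4 rise together over mice of all 3 groups (r = 0.920).

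Other genes of cholinergic signalling were read from a list of 29, of which 28 had a row and 26 were tested. In ICH against sham, 1 was called higher and 0 lower by limma, beside 2.53% of all genes, with a median difference of 0.02. Limma with voom called 3 (Chrm1, Chrm4, and Colq), beside 3.2% of all genes. The gene called by both was Chrm1, the M1 muscarinic receptor of forebrain neurons. It was at 3.35, 9.83, and 3.49 RPKM in sham, at 11.3, 15.4, and 9.43 RPKM in ICH, and at 7.31, 6.11, and 9.76 RPKM in feb. Sham replicate 2 was above ICH replicate 3, so the groups overlapped, and the difference was 1.26 ± 0.40 (limma, adjusted p = 0.347), which was 0.996, just under the 2-fold limit, without sham replicate 1. In feb against ICH and in feb against sham, 0 of the 26 were called by limma or by limma with voom. By limma, 1 (Bche) and 2 (Chka and Prima1) had an unadjusted p under 0.05, beside 11.1% and 8.54% of all genes. The medians were -0.09 and -0.01. Prima1, which encodes the membrane anchor of acetylcholinesterase, was at 3.81, 3.94, and 3.92 RPKM in sham, at 2.31, 2.52, and 3.81 RPKM in ICH, and at 2.502, 2.31, and 2.11 RPKM in feb. The feb mice were below all sham mice, and so by less than the printed digits were the ICH mice (ICH replicate 3 and sham replicate 1 were both at 3.81 RPKM). The difference from sham was -0.45 ± 0.18 in ICH (limma, adjusted p = 0.387) and -0.73 ± 0.18 in feb (adjusted p = 0.565), both under the 2-fold limit. Prima1 was singled out after its values were seen. The abundant nicotinic subunits of the brain, Chrna4 and Chrnb2, were at 4.76 to 12.5 RPKM and 7.56 to 10.8 RPKM across the 9 mice, above the 4 nicotinic genes described here in each mouse, and their differences between ICH and sham were -0.50 ± 0.34 (limma, adjusted p = 0.536) and -0.21 ± 0.11 (adjusted p = 0.453).

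Among 17657 other genes with a mean of at least 1 RPKM, those most like the mean log2 level of Chat, Slc18a3, and Slc5a7 over the 9 mice were A930024N18Rik (r = 0.968), Fastkd3 (r = 0.899), Rngtt (r = 0.872), Bricd5 (r = 0.860), and Pqlc2 (r = 0.853). A930024N18Rik was at 0.891 RPKM in feb replicate 2 and at 1.73 RPKM in sham replicate 2, its lowest and highest mice, as for Chat. Those most like the mean of Chrna3 and Chrnb4 were Glo1 (r = 0.965), Pitpna (r = 0.948), Snx33 (r = 0.940), Gm13716 (r = 0.933), and Lrrc55 (r = 0.930). Glo1 ran from 12.7 RPKM in feb replicate 3 to 18.7 RPKM in sham replicate 1. These genes were picked as the closest of many over 9 points, and the values are a description.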

How the data were processed

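RNA of rRNA-depleted libraries with unique molecular identifiers (UMIs) was sequenced from the brain of 9 mice, 3 each labelled sham, ICH, and feb. The authors deposited RPKM values for 38621 genes, 1 column per mouse. The submitters' processing notes name Trimmomatic 0.36, Subread 1.5.1 with featureCounts, and edgeR 3.12.1 with GRCm38. Reads were grouped by UMI into consensus reads before counting. The annotation release, use of strand, and handling of reads on several genes are not given in the sources used here. Whole reads were recovered from the RPKM values. The recovered values lay near a whole number in 100% of cases, within 0.01 plus a margin that grew with the count. For high counts this check could not fail.

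RPKM values were tested with limma 3.58.1 (R 4.3.3), with a linear fit and a trended empirical Bayes step, on log2(RPKM + 0.1), with all 9 mice in a fit without a block, over the 29025 genes that reached 0.1 RPKM in 3 mice or more. A fold change is on that scale, which understates the change of low genes. Genes were called at an unadjusted p under 0.05 with a change of over 2-fold. The Benjamini-Hochberg adjustment covered all genes tested. The deposited values are not counts, so the count test of the authors was not used. The test was first tried on simulated data. Pairs of genes were tested with exact permutations, two-sided (Python 3.11.15, scipy 1.17.1). All 10 genes are named with every value. List genes were to be named if called or among the highest in mean RPKM. Others are named too, and called genes of several region lists are given only as counts. The 5 genes most like 2 sets of members by Pearson r are named. The genes, lists, and tests were chosen with earlier results of these data known. A marker of the lists is not reported here. Alternatives were a replicate block, other call rules, limma with voom on recovered reads, each mouse left out, quantile or median scaling, the filter dropped or raised to 1 RPKM, pseudocounts of 1 and 0.01, separate fits of each pair of groups, and an untrended prior.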

Additional observations from a re-analysis of the deposited data

How the results depend on the processing

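Leaving out single mice changed the calls, and the reason was not tested. Each group had 3 mice, and the read numbers of the nicotinic genes were low. The number of the 10 genes called in ICH against sham, 1 here, was 0 with a pseudocount of 1 and 0 by adjusted p. It was 0 with an RPKM of at least 1 (5 of the genes were then tested, Chrna6 not among them). By an unadjusted p alone it was 2, beside 12.3% of all genes. It ranged from 0 to 2 with 1 mouse left out, being 0 without sham replicate 1, sham replicate 3, or ICH replicate 2 and 2 without sham replicate 2. In feb against ICH it was 0 in every setting tried. In feb against sham it was 1 with voom and from 0 to 4 with 1 mouse left out. In ICH against sham, the 26 pathway genes gave 3 calls by p alone (12.3% of all genes), 0 by adjusted p, and 3 with voom. With 1 mouse left out they gave 0 to 2 there (0 without sham replicate 1, 2 without sham replicate 2, Chrm1 and Chrm4). They gave 1 by p alone in feb against ICH (11.1% of all genes). In feb against sham they gave 2 by p alone (8.54% of all genes) and 0 to 2 with 1 mouse left out (2 without sham replicate 2). Of the 8 pairs, 5 had an adjusted p under 0.05, and 0 did so without the 2 farthest mice (7 left).

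Among 30 named fold changes, 0 changed sign in the settings that kept all mice, and 6 did so with 1 mouse left out: Chat (-0.35 to 0.076) and Ecel1 (-0.32 to 0.49) in ICH against sham, and Slc18a3 (-0.36 to 0.18), Chrna3 (-0.51 to 0.39), Chrnb3 (-0.34 to 0.35), and Ecel1 (-0.43 to 0.36) in feb against ICH. Equal medians lowered all differences from sham by about 0.11. Replicate numbers are shared between groups, but same-numbered mice had correlated deviations of only -0.127 to 0.0194 and the mice did not each correlate best with their own number, so the numbers were not taken as pairs. With the replicate number as a block, 1, 0, and 0 of the 10 genes and 1, 0, and 0 of the pathway genes were called in the 3 comparisons, with 717, 684, and 615 of all genes.

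Over all genes, the calls in ICH against sham, feb against ICH, and feb against sham were 735, 706, and 639, and with voom 929, 802, and 805. They were 158, 128, and 91 with a pseudocount of 1, 346, 287, and 263 with an RPKM of at least 1, 3570, 3212, and 2478 by p alone, and 7, 2, and 1 by adjusted p. Without sham replicate 2 they were 1288 in ICH against sham and 1136 in feb against sham, and without feb replicate 2 1016 in feb against sham. The causes were not tested.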
